A study of Mus musculus with 38 samples.

Results

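The genes described here encode the 5 subunits of the interleukin-12 (IL-12) cytokine family: Il12a, Il12b, Il23a, Il27 and Ebi3. They were chosen by name, as the rows of both deposited count tables whose gene identifier carries one of these symbols, and are 5 of 45706 genes listed. RNA from primary mouse embryonic fibroblasts of C57BL/6 embryos was sequenced in 38 samples of 28 groups, of which 10 groups held 2 samples and 18 held 1. The cells were homozygous for the RelA knock-in allele called RelA-TA-KI (the series title speaks of RelA target genes and transactivation) or wild-type (WT), and every culture was serum-starved overnight. In the TNF table, RelA-TA-KI and WT cells were untreated or given TNF at 10 ng/ml for 0.5, 1, 3 or 8 h, with 2 samples per genotype and time. In the other table, cells of both genotypes were untreated or given LPS at 100 ng/ml or Poly(I:C) at 20 ug/ml for 0.5, 1, 3 or 8 h, with 1 sample per genotype and condition. The labels name no cell type to which the allele was restricted. The labels do not say whether samples came from separate embryos or cultures. In the TNF table p-values therefore measure the spread between these samples, which may in part be technical. In the other table, with 1 sample per genotype and condition, p-values measure how a difference varied over conditions or between genotypes.

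The IL-12 family cytokines are secreted pairs of subunits that share partners. IL-12 joins Il12a (p35) to Il12b (p40), IL-23 joins Il23a (p19) to Il12b, IL-27 joins Il27 (p28) to Ebi3, and IL-35 joins Il12a to Ebi3. They are best known as products of macrophages and dendritic cells that direct T cells and natural killer cells. Transcription factors of the NF-kB family, to which RelA belongs, are known activators of Il12b in macrophages. LPS is sensed by Toll-like receptor 4 and the double-stranded RNA mimic Poly(I:C) by Toll-like receptor 3 and cytosolic sensors, while TNF is itself a cytokine that activates NF-kB.

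The upstream sequences of the main subunit genes are shown because NF-kB acts through sites in such regions. RefSeq promoter entries (GRCm38.p6) were found for 3 of the 5 genes (Il12a with 2 start sites, Il12b and Ebi3). The 250 bases before the start of the pair with high counts read as follows on the plus strand, with matches to an NF-kB type pattern (GGG, then 5 bases of any kind, then CC), searched on both strands, in capitals.
Il12b, chr11:44399813-44400062: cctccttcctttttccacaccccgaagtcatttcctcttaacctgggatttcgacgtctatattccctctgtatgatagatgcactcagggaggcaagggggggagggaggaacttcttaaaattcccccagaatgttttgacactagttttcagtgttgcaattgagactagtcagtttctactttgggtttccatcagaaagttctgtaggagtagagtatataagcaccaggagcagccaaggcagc
Ebi3, chr17:55952373-55952622: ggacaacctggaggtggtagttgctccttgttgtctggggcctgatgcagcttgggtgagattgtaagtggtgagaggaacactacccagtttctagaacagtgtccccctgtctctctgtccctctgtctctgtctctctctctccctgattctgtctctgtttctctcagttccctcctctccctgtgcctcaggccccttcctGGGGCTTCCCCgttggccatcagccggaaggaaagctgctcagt
In Ebi3, overlapping matches began 44 and 43 bases before the start on both strands. Further Ebi3 matches began at position 15 (plus strand) and 36 (minus strand) after the start, outside the bases shown. The window from 250 bases before to 50 bases after the Il12b start held no match. That pattern was found in 50.8% of 32851 promoter entries of this length. No entry of Il12a, Il12b or Ebi3 matched an interferon-response type pattern (GAAA, 2 bases of any kind, GAAA; 3.44% of entries), TGANTCA (AP-1 type, 7.81%) or TATAAA (13.6%), each searched on both strands. One of the 2 Il12a start sites held matches to the NF-kB type pattern and the other held none. A match here is a description of letters in a window, and a window with no match may hold sites of other letters.

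Libraries given LPS or Poly(I:C) and their untreated cells, together the LPS table, held 7.02 to 9.43 M counts, and those of TNF-treated cells and their controls held 6.72 to 9.59 M. A count of 0 allowed up to 0.270 to 0.513 CPM in the LPS table and 0.302 to 0.442 CPM in the TNF table, taking 3 counts as the upper limit. CPM are counts per 1 M counts after TMM scaling, and all intervals and limits cover counting error only, since the reads carry no molecular identifiers. The fibroblast label was met by all 12 fibroblast markers, with summed levels of 18902 to 65804 CPM, but all 20 macrophage markers also had counts. Their summed level was 4434 to 8463 CPM in RelA-TA-KI and 5451 to 7444 CPM in WT libraries of the LPS table, and 1513 to 5113 CPM in RelA-TA-KI and 1317 to 2631 CPM in WT libraries of the TNF table. Of 10 dendritic cell markers 8 had counts and Cd209a and Siglech were at 0. Their summed level in the LPS table was 22.8 to 230 CPM in RelA-TA-KI (median 67.6) and 21.7 to 371 CPM in WT libraries (median 150). These ranges and medians run over all untreated and stimulated libraries of a genotype, and 3 of the 10 markers had under 10 counts there. They are not read as numbers of dendritic cells. In the LPS table Xist was at 0.464 to 1.49 CPM in RelA-TA-KI and 250 to 438 CPM in WT libraries, and the Y-linked gene Ddx3y was at 127 to 183 CPM in RelA-TA-KI and 55.9 to 98.2 CPM in WT libraries. In the TNF table WT replicate 2 had 2.32 to 3.89 CPM of Xist and 128 to 160 CPM of Ddx3y, and WT replicate 1 had 337 to 426 CPM of Xist and 0.145 to 0.675 CPM of Ddx3y. The WT replicates of the TNF table thus differed in embryo sex and were not repeats of 1 culture. The RelA-TA-KI libraries of that table had 346 to 517 CPM of Xist and 0 to 0.675 CPM of Ddx3y. In such mixed cultures fewer cells of a type and less RNA per cell cannot be told apart. In the LPS table WT libraries held both Xist and Ddx3y, as a mix of male and female cells would, while RelA-TA-KI libraries had almost no Xist. The levels of these 2 genes separated the genotypes in all libraries of that table, so genotype and embryo sex cannot be told apart there. The part of other cells or of embryo sex in the results below was not tested.

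Il12b, the p40 subunit common to IL-12 and IL-23, lies at chr11:44400063-44414033 on the plus strand of mm10 (ENSMUSG00000004296, 1967 exon bases in 8 exon blocks). It was the subunit gene with the highest counts, and in these libraries the order of the genotypes differed by stimulus. With LPS, RelA-TA-KI cells held 5, 4, 443 and 1095 counts at 0.5, 1, 3 and 8 h, and WT cells held 7, 92, 1566 and 2842 counts. Untreated libraries held 2 counts in RelA-TA-KI and 1 count in WT. Il12b thus stood at 63.2 CPM in RelA-TA-KI and 239 CPM in WT cells after 3 h of LPS, and at 174 CPM in RelA-TA-KI and 486 CPM in WT cells after 8 h. The RelA-TA-KI to WT ratio was 0.0383 at 1 h (95% interval 0.0102 to 0.101), 0.264 at 3 h (0.237 to 0.294) and 0.358 at 8 h (0.334 to 0.384). WT cells had 120 times their untreated level at 1 h of LPS (interval 21.0 to 4781), whereas RelA-TA-KI cells had 2.10 times theirs, an interval of 0.301 to 23.2 that includes no change.

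Under Poly(I:C) the order was the opposite at 3 and 8 h. RelA-TA-KI cells held 3, 3, 173 and 314 Il12b counts at 0.5, 1, 3 and 8 h, and WT cells held 5, 5, 44 and 32. The levels were 20.0 CPM in RelA-TA-KI and 5.62 CPM in WT cells at 3 h, and 49.1 CPM in RelA-TA-KI and 4.71 CPM in WT cells at 8 h. The ratio of RelA-TA-KI to WT was 3.57 at 3 h (2.55 to 5.09) and 10.4 at 8 h (7.24 to 15.5). Macrophage markers summed to 8463 CPM in RelA-TA-KI and 6587 CPM in WT cells at 8 h of Poly(I:C), and to 7137 CPM in RelA-TA-KI and 6521 CPM in WT cells at 8 h of LPS. At 3 h they summed to 5465 CPM in RelA-TA-KI and 5908 CPM in WT cells with Poly(I:C), and to 5270 CPM in RelA-TA-KI and 6091 CPM in WT cells with LPS. These single libraries have no replicate check.

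**Figure D1:**
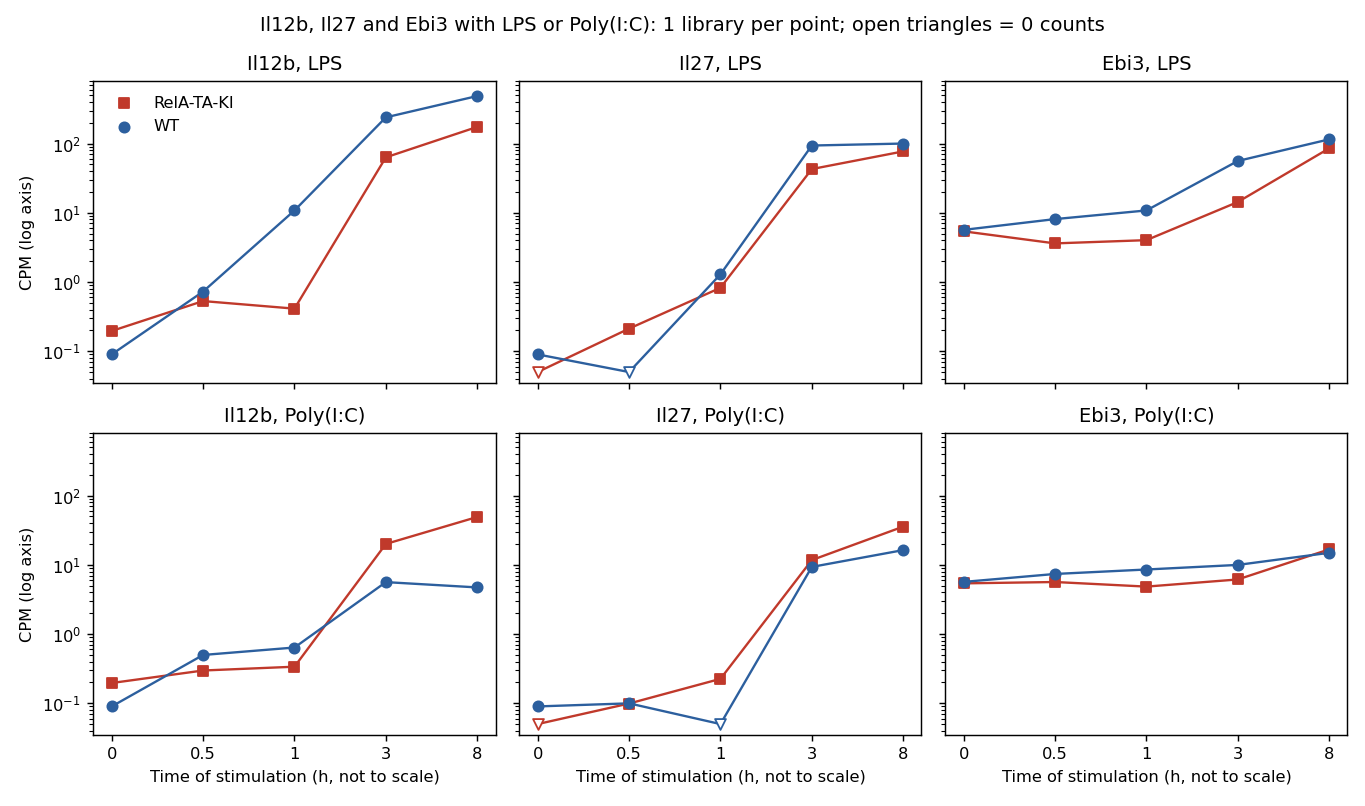
Levels of Il12b, Il27 and Ebi3 in CPM (log axis) against time of LPS or Poly(I:C), 1 library per point, with RelA-TA-KI as red squares, WT as blue circles and libraries with 0 counts as open triangles. Il12b reached 174 CPM in RelA-TA-KI and 486 CPM in WT cells after 8 h of LPS, and 49.1 CPM in RelA-TA-KI and 4.71 CPM in WT cells after 8 h of Poly(I:C).

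Il27 encodes the p28 subunit and lies at chr7:126589010-126594941 on the minus strand (ENSMUSG00000044701, 1021 exon bases in 5 blocks). It was at or near 0 in untreated cells and above 3 counts in both genotypes from 1 h of LPS and from 3 h of Poly(I:C). With LPS, RelA-TA-KI cells held 2, 8, 300 and 485 counts at 0.5, 1, 3 and 8 h, and WT cells held 0, 11, 613 and 588. With Poly(I:C), RelA-TA-KI cells held 1, 2, 101 and 228 counts, and WT cells held 1, 0, 73 and 111. The untreated libraries had 0 counts in RelA-TA-KI and 1 count in WT. The ratio of RelA-TA-KI to WT was 0.457 at 3 h of LPS (0.397 to 0.526) and 0.766 at 8 h (0.678 to 0.866). With Poly(I:C) it was 1.26 at 3 h, where the interval of 0.920 to 1.72 includes 1, and 2.18 at 8 h (1.73 to 2.76). At 8 h the order of the genotypes was that of Il12b for each stimulus, with ratios nearer to 1. The gene span overlaps Apobr, on the other strand, by 103 bases; Apobr had 198 to 784 counts in these libraries, and the strand setting of the counting is not stated, but untreated Il27 stayed at 0 or 1 counts.

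Ebi3, the partner of Il27 in IL-27, lies at chr17:55952623-55957021 on the plus strand (ENSMUSG00000003206, 1170 exon bases in 5 blocks). It was the 1 subunit gene with clear counts in untreated cells, 55 in RelA-TA-KI and 63 in WT. With LPS, RelA-TA-KI cells held 34, 39, 100 and 537 counts at 0.5, 1, 3 and 8 h, and WT cells held 78, 92, 367 and 670. In CPM this was 14.3 in RelA-TA-KI and 56.0 in WT cells at 3 h, and 85.3 in RelA-TA-KI and 115 in WT cells at 8 h. The RelA-TA-KI level was below the WT level at all 4 times of LPS, with ratios of 0.445 at 0.5 h (0.288 to 0.674), 0.373 at 1 h (0.250 to 0.549), 0.255 at 3 h (0.202 to 0.318) and 0.745 at 8 h (0.663 to 0.835). With Poly(I:C), RelA-TA-KI cells held 57, 43, 53 and 107 counts, and WT cells held 74, 67, 78 and 101. The ratio was 0.566 at 1 h (0.376 to 0.842), 0.617 at 3 h (0.427 to 0.886) and 1.13 at 8 h (0.850 to 1.49). The untreated ratio was 0.952 (0.651 to 1.39). The span of Ebi3 overlaps Gm16712 on the other strand, which had 0 to 6 counts.

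**Figure D2:**
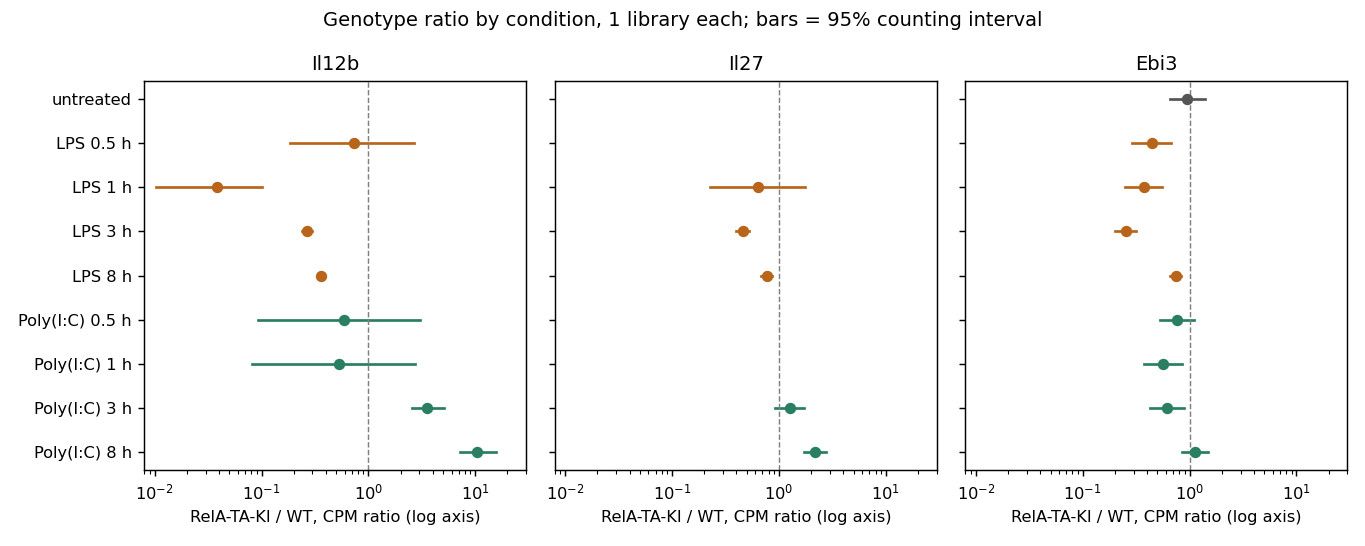
Ratio of CPM in RelA-TA-KI to CPM in WT cells (log axis) for Il12b, Il27 and Ebi3 in each condition, with 95% counting intervals; conditions where both libraries held at most 3 counts have no point. With LPS at 3 h the ratio was 0.264 for Il12b, 0.457 for Il27 and 0.255 for Ebi3, and with Poly(I:C) at 8 h it was 10.4 for Il12b, 2.18 for Il27 and 1.13 for Ebi3.

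Il12a and Il23a, the p35 and p19 subunits that make IL-12 and IL-23 with Il12b, were barely detected. Il12a (chr3:68690644-68698547, plus strand, ENSMUSG00000027776, 1701 exon bases in 6 blocks) had 10 counts in the whole LPS table. Of these, 4 and 5 counts were in WT cells at 3 and 8 h of LPS and 1 was in RelA-TA-KI cells at 0.5 h of Poly(I:C). Il23a (chr10:128296140-128298084, minus strand, ENSMUSG00000025383, 1359 exon bases in 4 blocks) had 17 counts. RelA-TA-KI cells held 2, 0, 0 and 0 counts at 0.5, 1, 3 and 8 h of LPS, and WT cells held 0, 10, 2 and 3. No Il23a count was found in any untreated or Poly(I:C) library of either genotype. With the RelA-TA-KI library set to the limit of 3 counts, Il23a at 1 h of LPS was 3.78-fold higher in WT cells. The exact 95% interval of 10 against 0 counts begins at 2.54-fold.

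Levels of different subunits were set side by side per kilobase (kb) of exon. At 8 h of LPS, Il12b stood at 88.4 CPM per kb in RelA-TA-KI and 247 CPM per kb in WT cells. Its partner Il12a stood at 0 in RelA-TA-KI and 0.502 CPM per kb in WT cells, so that the Il12b level per kb was at least 316 times that of Il12a in RelA-TA-KI and 492 times in WT cells. Il27 and Ebi3 were near equal to each other at that time: the ratio of Ebi3 to Il27 per kb was 0.966 in RelA-TA-KI and 0.994 in WT cells. At 3 h of LPS that ratio was 0.291 in RelA-TA-KI and 0.522 in WT cells. At 8 h of Poly(I:C) it was 0.410 in RelA-TA-KI and 0.794 in WT cells, where Ebi3 differed little between genotypes (14.3 CPM per kb in RelA-TA-KI and 12.7 in WT) and Il27 stood at 34.9 CPM per kb in RelA-TA-KI and 16.0 in WT.

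**Figure D3:**
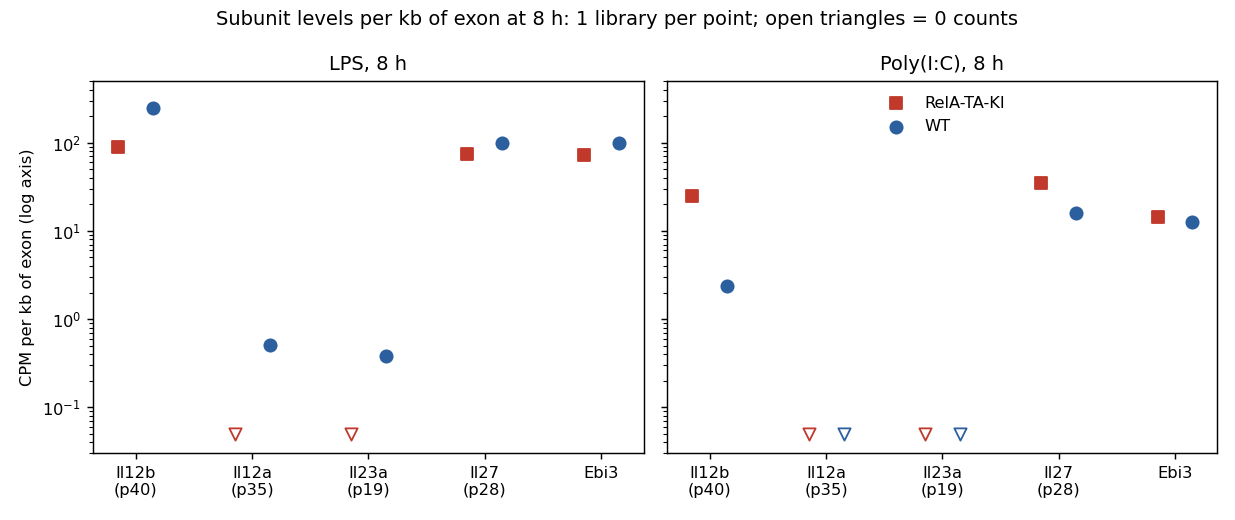
Level of the 5 subunit genes in CPM per kb of exon (log axis) at 8 h of LPS and 8 h of Poly(I:C), 1 library per point, RelA-TA-KI left of WT, with 0 counts as open triangles. With LPS, Il12b stood at 88.4 in RelA-TA-KI and 247 in WT cells, far above its partners Il12a and Il23a, which had at most 5 counts.

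Across both genotypes, the responses were tested with edgeR's quasi-likelihood test on the whole table, with the RelA-TA-KI and WT libraries of a condition as the 2 samples. Of the 5 genes 4 passed the filter on low counts; Il12a did not, and Il23a passed through its 10 counts at a single condition. At 3 h of LPS, 3 of the 4 rose (Il12b, Il27 and Ebi3), while 43.7% of the 14136 genes tested were called in either direction and 22.0% were called higher. The log2 rise over untreated cells was 9.83 for Il12b (standard error, SE, 1.76, adjusted p = 7.7e-04), 10.09 for Il27 (SE 0.82, adjusted p = 1.8e-06) and 2.52 for Ebi3 (SE 0.41, adjusted p = 4.1e-04). At 8 h of LPS the same 3 genes were called, with 61.9% of genes called, and the rises were 10.98, 10.49 and 4.18. Folds of Il12b and Il27 over untreated cells rest on 0 to 2 untreated counts and depend on how these are treated. At 0.5 and 1 h no subunit gene was called with LPS (0.134% and 0.927% of genes called) or Poly(I:C) (0.00707% and 0%).

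Il27 rose by 3 h of Poly(I:C) (log2 7.42, SE 1.02, adjusted p = 2.7e-04 by edgeR, 17.9% of genes called). Il12b at 6.50 (SE 2.13) did not pass at 3 h, with an adjusted p of 0.054 by edgeR. It was called by DESeq2 (6.60, adjusted p = 3.6e-04), by edgeR with no filter (6.47, adjusted p = 0.021) and in 5 of the 18 edgeR fits that left out 1 library. At 8 h of Poly(I:C), Il12b (7.60, adjusted p = 0.0074 by edgeR), Il27 (8.73) and Ebi3 (1.55, SE 0.43, adjusted p = 0.011) were called, with 48.9% of genes called. The Il12b call at 8 h was lost without the RelA-TA-KI Poly(I:C) library of 8 h (4.47, adjusted p = 0.16 by edgeR) and without the untreated WT library (6.89, adjusted p = 0.061). The Ebi3 call was lost without the same libraries (1.01, adjusted p = 0.13, and 1.16, adjusted p = 0.12). Scaling by TMM placed log2 folds over untreated cells 0.22 to 0.71 above those from total counts at 3 and 8 h, and no direction named here changed.

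At 3 and 8 h, Il12b, Il27 and Ebi3 levels were higher with LPS than with Poly(I:C) in both genotypes. The edgeR difference (LPS minus Poly(I:C), log2) at 3 h was 2.67 for Il27 (SE 0.41, adjusted p = 0.0064) and 2.01 for Ebi3 (SE 0.40, adjusted p = 0.016), with 8.69% of genes called. Il12b at 3.34 (SE 1.04) was not called at 3 h, with an adjusted p of 0.067 by edgeR. At 8 h it was 3.39 for Il12b (SE 1.01, adjusted p = 0.049), 1.76 for Il27 (SE 0.39, adjusted p = 0.015) and 2.63 for Ebi3 (SE 0.38, adjusted p = 0.002), with 12.5% of genes called. Within genotypes, the Il12b level with LPS was 3.54 times that with Poly(I:C) at 8 h in RelA-TA-KI cells (interval 3.12 to 4.03) and 103 times in WT cells (72.9 to 151). For Il27 these ratios were 2.16 in RelA-TA-KI (1.84 to 2.54) and 6.16 in WT cells (5.02 to 7.61), and for Ebi3 5.10 in RelA-TA-KI (4.13 to 6.33) and 7.71 in WT cells (6.24 to 9.60). The Il12b call at 8 h was lost in 12 of the 18 fits that left out 1 library, with values of 1.98 to 6.54. The Il27 calls were lost without the WT library of either stimulus at the time tested, at 3 h (1.91 without LPS, 2.41 without Poly(I:C)) and at 8 h (1.56 without LPS, 1.07 without Poly(I:C)). The Ebi3 call at 3 h was lost without the WT LPS library (1.14) or either Poly(I:C) library of that time (2.02 without RelA-TA-KI, 1.98 without WT).

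The next fit took the genotype difference common to the 9 conditions of the LPS table, with condition as a covariate. Ebi3 was lower in RelA-TA-KI by 0.75 on the log2 scale (log2 -0.75, SE 0.20, adjusted p = 0.024 by edgeR), with 15.6% of genes called. It was lower in 8 of 9 conditions. The call was lost without either LPS library of 0.5 h (-0.71, adjusted p = 0.055) or 1 h (-0.68, adjusted p = 0.057), and when only 3 and 8 h were used (-0.74, adjusted p = 0.2). Il12b gave -0.47 (adjusted p = 0.69 by edgeR), Il27 -0.11 (adjusted p = 0.84) and Il23a -2.42 (adjusted p = 0.21), none of them called. For Il12b the 2 stimuli had opposite signs: the fit on untreated and LPS libraries gave -1.88 (SE 0.33, adjusted p = 0.015) and that on untreated and Poly(I:C) libraries 2.24 (SE 0.47, adjusted p = 0.037). For Ebi3 these fits gave -0.99 (adjusted p = 0.069 by edgeR) and -0.33 (adjusted p = 0.33), neither called. The share of all genes called was not taken for the fits on 1 stimulus.

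The genotype difference within each stimulus was then fitted on the 8 libraries of 3 and 8 h, with the 2 times standing as the samples of a genotype; this fit was chosen after the values had been seen. Il12b was lower in RelA-TA-KI with LPS (log2 -1.69, SE 0.27, adjusted p = 0.027 by edgeR, 3.74% of genes called) and higher with Poly(I:C) (2.59, SE 0.35, adjusted p = 0.029, 1.47% of genes called). The Poly(I:C) call was lost without either genotype's 8 h library (1.85 without RelA-TA-KI, 1.82 without WT). The difference between these 2 values was -4.28 (SE 0.44) and missed the threshold in edgeR (adjusted p = 0.096). That test called 0 genes and had 881 at an unadjusted p below 0.05. DESeq2 gave -4.31 (adjusted p = 1.1e-17) and called 50 genes, 0.747% of those it tested. Il27 followed in sign, with -0.74 for LPS (adjusted p = 0.16 by edgeR), 0.75 for Poly(I:C) (adjusted p = 0.25) and -1.49 for the difference (SE 0.35, adjusted p = 0.52), none of them called. With no filter on low counts Il27 was called for LPS (-0.75, adjusted p = 0.024 by edgeR) and for the difference (-1.52, adjusted p = 0.022). For Ebi3 the values were -1.12 (adjusted p = 0.17 by edgeR), -0.24 (adjusted p = 0.82) and -0.88 (adjusted p = 0.82). The Ebi3 value for LPS was called by DESeq2 (-1.17, adjusted p = 0.032) and by edgeR with no filter (-1.12, adjusted p = 0.01).

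In the single conditions, a change by size was taken as a TMM-scaled log2 ratio of at least 1 either way, with 5 CPM or more in at least 1 of the libraries. By this rule the subunit genes lower in RelA-TA-KI were Ebi3 at 0.5 h of LPS (1.88% of the genes at or above 5 CPM passed either way), Il12b and Ebi3 at 1 h (2.53%), Il12b, Il27 and Ebi3 at 3 h (5.47%) and Il12b at 8 h (9.51%). Higher in RelA-TA-KI were Il12b at 3 h of Poly(I:C) (3.01%) and Il12b and Il27 at 8 h (9.46%). The Il27 log2 ratio at 8 h was 1.12, above 1 by less than the 0.30 that TMM added to that comparison. Its passing of the size rule thus rested on the scaling. No subunit gene passed in untreated cells (1.13%) or at 0.5 and 1 h of Poly(I:C) (1.16% and 1.59%). Ebi3 at 8 h of Poly(I:C) had a log2 ratio of 0.17 with TMM and -0.12 with total counts, since TMM moved that comparison by 0.30; it is not read as a difference.

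TNF, which was the stimulus with 2 libraries per group, gave few counts for any subunit gene. Il12a had 1 count in all 20 libraries, Il12b 19, Il23a 29, Il27 14 and Ebi3 495, and only Ebi3 passed the filter. Ebi3 averaged 2.94 ± 1.90, 2.57 ± 1.34, 2.18 ± 0.867, 2.93 ± 2.78 and 6.47 ± 2.94 CPM at 0, 0.5, 1, 3 and 8 h of TNF in RelA-TA-KI cells (SD, n = 2 each). In WT cells it averaged 2.68 ± 1.33, 1.86 ± 0.531, 2.19 ± 0.580, 2.24 ± 0.468 and 3.35 ± 0.403 CPM (SD, n = 2 each). The 8 h libraries held 35 and 76 counts in RelA-TA-KI and 24 and 29 in WT. Replicate 2 was above replicate 1 in all 10 groups, and the genotypes overlapped at every time except 8 h, where both RelA-TA-KI libraries (4.39 and 8.55 CPM) were above both WT libraries (3.07 and 3.64 CPM).

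In the fit without a replicate term the Ebi3 change at 8 h was 1.13 in RelA-TA-KI (SE 0.59, adjusted p = 0.14 by edgeR, 42.1% of genes called) and 0.27 in WT cells (SE 0.64, adjusted p = 0.82, 20.8%). The genotype difference at 8 h was 0.95 (SE 0.58, adjusted p = 0.3, 15.9%). With the replicate number as a block, the change in RelA-TA-KI cells was 1.15 (SE 0.31, adjusted p = 0.005 by edgeR, 51.8%) and the genotype difference 0.91 (SE 0.31, adjusted p = 0.035, 27.4%), both called. The difference of the responses was not called in either fit (0.86, adjusted p = 0.6 by edgeR, and 0.80 with the block, adjusted p = 0.27; 6.87% and 19.1% of genes called). Macrophage markers moved with Ebi3 here: at 8 h their sums were 2706 and 5113 CPM in RelA-TA-KI and 1650 and 2631 CPM in WT libraries, and in untreated cells 1997 and 3366 CPM in RelA-TA-KI and 1465 and 2307 CPM in WT. Their part in the Ebi3 values was not tested.

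**Figure D4:**
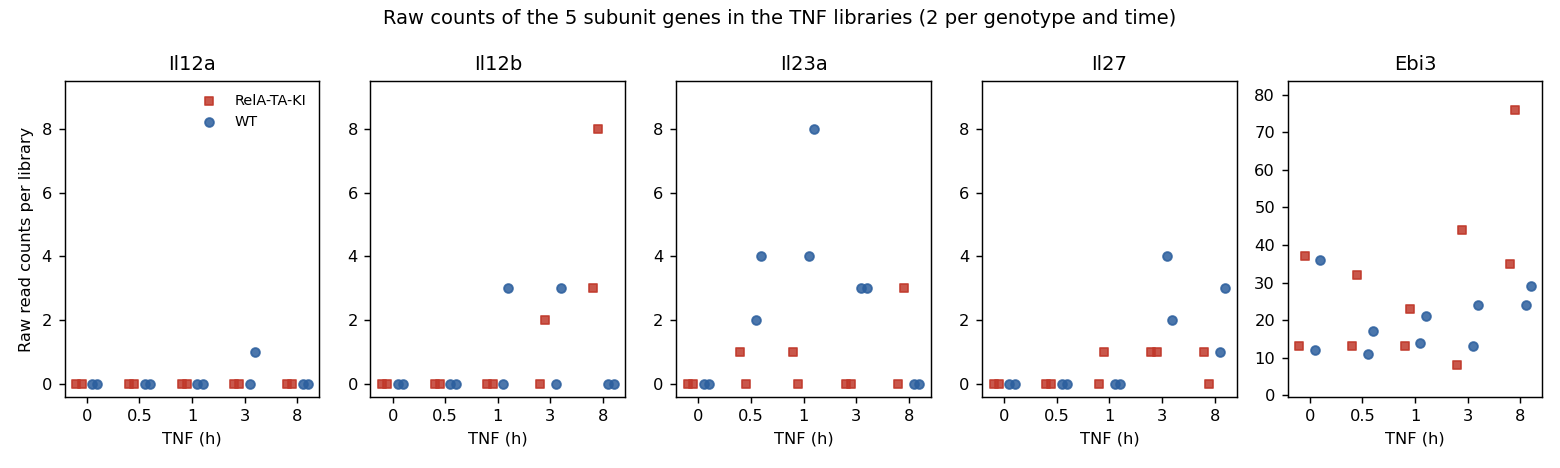
Raw counts of the 5 subunit genes in each of the 20 TNF libraries, with RelA-TA-KI as red squares left of WT as blue circles at each time. Il23a had 2 to 8 counts in every WT library of 0.5, 1 and 3 h and at most 1 in the RelA-TA-KI libraries of those times; Ebi3 had 35 and 76 counts in RelA-TA-KI at 8 h and 24 and 29 in WT.

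Il23a had counts in WT cells given TNF that RelA-TA-KI cells barely had. RelA-TA-KI libraries held 1 and 0 counts at 0.5 h, 1 and 0 at 1 h and 0 and 0 at 3 h, and WT libraries held 2 and 4, 4 and 8, and 3 and 3. Untreated libraries of both genotypes held 0. All 6 WT libraries of these times were above all 6 RelA-TA-KI libraries. Summed over these times, 2 counts in RelA-TA-KI stood against 24 in WT cells, a ratio of 0.0770 with a counting interval of 0.00882 to 0.310. At 8 h the RelA-TA-KI libraries held 0 and 3 counts and the WT libraries 0 and 0. Over all 4 times the sums were 5 in RelA-TA-KI and 24 in WT cells, a ratio of 0.193 (0.0576 to 0.517). No library was above 0.990 CPM, and Il23a did not pass the filter in this table. With no filter, edgeR gave Il23a genotype differences (RelA-TA-KI minus WT, log2) of -2.49, -3.34 and -4.68 at 0.5, 1 and 3 h. None of them was called (adjusted p = 0.39 at 1 h and 0.36 at 3 h by edgeR). Il12b at 8 h of TNF held 3 and 8 counts in RelA-TA-KI and 0 and 0 in WT libraries. With the WT sum set to the limit of 3 counts, the level was 3.43-fold higher in RelA-TA-KI. The exact 95% interval of 11 against 0 counts begins at 2.35-fold. The library with 8 counts also had the highest macrophage marker sum of the TNF libraries, 5113 CPM. Il12b had 2 counts in RelA-TA-KI and 3 in WT libraries at 3 h, and Il27 had 2 in RelA-TA-KI and 6 in WT libraries at 3 h, which are too few to order the genotypes.

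The genes with the closest pattern were found by Pearson correlation of log2 CPM over the libraries of a table, as a description of libraries that share conditions and depth. In the TNF table the closest to Ebi3 over 20 libraries were Lyz2 (r = 0.901), a lysozyme gene of macrophages, the kinase gene Lyn (0.884) and Prex1 (0.883). Lyz2 ranged over 386 to 1680 CPM there. In the LPS table, over 18 libraries, Golph3 (0.972), the cytokine gene Il6 (0.967) and Bcl2a1b (0.966) were closest to Il12b. B4galt5 (0.992), Plekha3 (0.990) and Dnaja2 (0.986) were closest to Il27, and the kinase gene Syk (0.980), the amino acid transporter gene Slc7a2 (0.977) and Mllt6 (0.973) to Ebi3. Among the subunits, Il12b and Il27 had r = 0.948, Il12b and Ebi3 0.884 and Il27 and Ebi3 0.812.

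**Figure D5:**
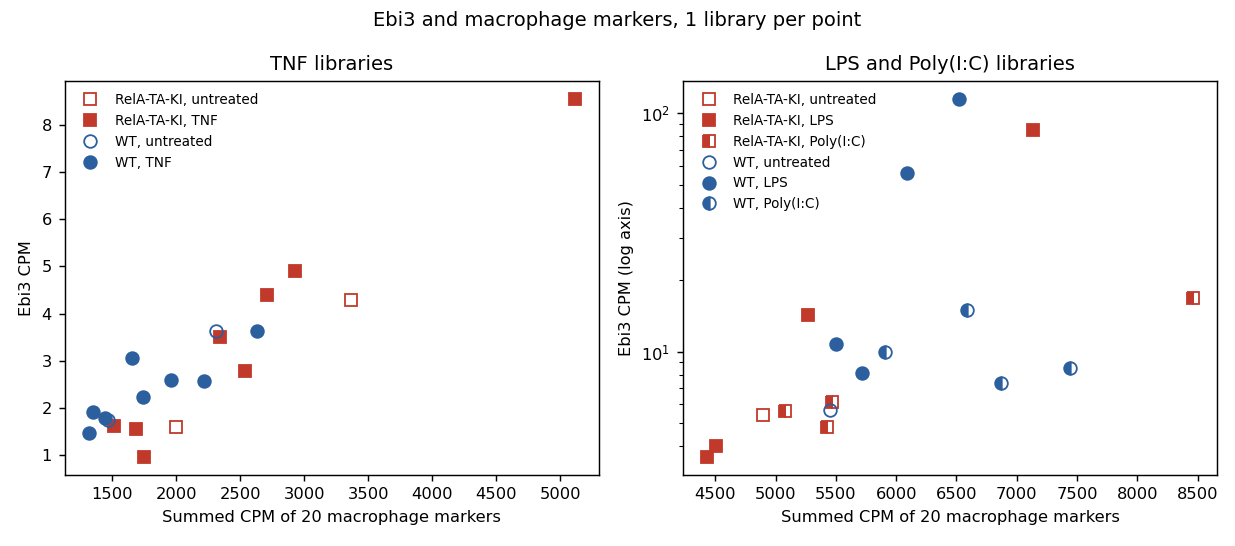
Ebi3 CPM against the summed CPM of 20 macrophage markers, 1 library per point, in the TNF libraries (left, linear axis) and in those of the LPS table (right, log axis for Ebi3). The RelA-TA-KI library with 8.55 CPM of Ebi3 had a marker sum of 5113 CPM, while the libraries of 8 h of LPS had 85.3 CPM in RelA-TA-KI and 115 CPM in WT at sums of 7137 and 6521 CPM.

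The receptors of these cytokines and the kinases and STAT factors behind them form a list of 11 genes. After 8 h of LPS, 8 of the 11 rose and 1 fell, with a median log2 change of 1.83 against -0.06 over all genes tested, of which 61.9% were called (30.1% higher). After 8 h of Poly(I:C), 7 rose and none fell, with a median of 1.41 against -0.04 over all genes, of which 48.9% were called (24.4% higher). Il12rb1, the receptor chain that binds p40, had 0 counts in both untreated libraries and rose by edgeR with LPS at 8 h (log2 9.34, SE 0.91, adjusted p = 6.9e-06), to 11.6 CPM in RelA-TA-KI and 7.69 CPM in WT cells. It also rose by 8 h of Poly(I:C), to 13.4 CPM in RelA-TA-KI and 9.27 CPM in WT cells. Il12rb2, the second chain of the IL-12 receptor, fell at 8 h of LPS (log2 -1.45, adjusted p = 0.006 by edgeR) to 2.22 CPM in RelA-TA-KI and 1.20 CPM in WT cells. Il23r, the chain particular to IL-23, was called higher at 8 h of LPS with 6 counts in RelA-TA-KI and 22 in WT cells. Il27ra, the IL-27 receptor chain, stood at 1.27 CPM in RelA-TA-KI and 1.71 CPM in WT cells at 8 h of LPS and was not called.

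Among the signalling genes, Jak2, the kinase on Il12rb2 and Il23r, rose by 3.89 on the log2 scale at 8 h of LPS (SE 0.20, adjusted p = 3.0e-08 by edgeR) and Tyk2, the kinase on Il12rb1, by 1.63. Jak1 rose by 1.65, Stat3 by 1.83 and Stat4, the factor downstream of IL-12, by 7.58 from 0 untreated counts. Il6st, the gp130 chain shared with IL-6 receptors and used by IL-27, was not called at 8 h of LPS (0.54, adjusted p = 0.094 by edgeR); it stood at 744 CPM in RelA-TA-KI and 1792 CPM in WT cells. None of the 11 was called for a genotype difference shared by the 9 conditions, where 15.6% of all genes were called. In TNF-treated cells 8 of the 11 passed the filter, and the difference of TNF responses at 8 h was called lower for 2, where 6.87% of all genes were called: Il6st (-1.06, SE 0.15, adjusted p = 0.0014 by edgeR) and Tyk2 (-0.51, SE 0.13, adjusted p = 0.037).

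Of 20 genes for transcription factors known to act on the subunit genes, 18 rose with LPS and 16 with Poly(I:C) at 8 h, and 1 fell with Poly(I:C). Of all 14136 genes tested, 4248 were called higher with LPS and 3447 with Poly(I:C) at 8 h. Either way, 61.9% were called with LPS and 48.9% with Poly(I:C). The median log2 change of the 20 genes was 2.47 for LPS, against -0.06 over all genes, and 1.76 for Poly(I:C), against -0.04. In the TNF table, the response at 3 h was smaller in RelA-TA-KI cells for 4 of the 20 and larger for none, while 0.932% of all genes were called in either direction. These were Irf1 (difference of responses -1.86, SE 0.24, adjusted p = 0.0013 by edgeR), an activator of Il12a and Il27 in macrophages, and the NF-kB genes Nfkb1 (-1.19), Nfkb2 (-1.14) and Relb (-1.03). In the LPS table Relb stood at 44.8 CPM in RelA-TA-KI and 188 CPM in WT cells at 3 h of LPS, and at 55.5 CPM in RelA-TA-KI and 149 CPM in WT cells at 8 h of Poly(I:C). Irf1 stood at 724 CPM in RelA-TA-KI and 891 CPM in WT cells at 3 h of LPS. For the shared genotype difference 5 of the 20 were lower in RelA-TA-KI and 1 was higher, where 15.6% of all genes were called.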

How the data were processed

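Poly(A)-selected stranded RNA-seq (single-end, 50 bases) covered 38 samples. The deposited values are the authors' raw read counts per gene, with gene length in a further column; per the submitters' processing notes, reads were trimmed with cutadapt 1.9.1, aligned to mm10 with STAR and counted with featureCounts 1.4.6, and DESeq2 is named. The annotation release and strand setting are not given in the sources used here. Of 45706 identifiers 45143 were given a symbol, and 0 sample columns were left out. Totals were 6.72 to 9.59 M counts per library (TNF) and 7.02 to 9.43 M (LPS and Poly(I:C)), and the tables were tested separately.

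Tests used the edgeR 4.0.16 quasi-likelihood F test in R 4.3.3 with TMM and filterByExpr on the groups (13843 genes for TNF, 14136 for LPS and Poly(I:C), 13493 for 3 and 8 h), Benjamini-Hochberg adjustment and a threshold of 0.05; SE is the absolute log2 fold over the square root of F. Only the difference of TNF responses at 8 h and the genotype difference shared by 9 conditions were checked on simulated data. The fit on 3 and 8 h and the other comparisons were not. Biological coefficients of variation were 10.2%, 12.8% and 14.3%, on 10, 8 and 2 residual degrees of freedom. Log2 ratios of single libraries used a prior count of 2, and intervals are exact (Clopper-Pearson) binomial at 95%. Same-numbered TNF libraries deviated together within a genotype (r of 0.161 to 0.37 in RelA-TA-KI, 0.161 to 0.529 in WT). Between genotypes r was 0.164 to 0.338 at the same time and 0.00555 to 0.338 over all 25 pairs of groups. The numbers were taken to pair the samples, and the fit with a replicate block is given where it changed a call. This pairing comes from the data. Replicate 2 of WT and replicate 2 of RelA-TA-KI differed in Xist and Ddx3y, so they were not matched in embryo sex. Alternatives were RLE size factors, DESeq2 1.42.0, no filter, a filter on genotypes, other subsets of groups, and each library left out. Named were the 5 subunits, receptor-list genes with 10 counts or more (1 of them is not reported here), up to 4 regulators per direction with the largest difference of TNF responses at 3 h, and the 3 genes closest to each subunit with 100 counts or more. The members, gene lists and motifs were chosen with earlier results of these data known.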

Additional observations from a re-analysis of the deposited data

Results flagged for a closer look

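For Il12b at 3 and 8 h, the genotype difference changed between LPS and Poly(I:C) by -4.28 on the log2 scale (RelA-TA-KI minus WT, LPS minus Poly(I:C), SE 0.44, adjusted p = 0.096 by edgeR). The libraries of both LPS times had a ratio of RelA-TA-KI to WT below 1 and those of both Poly(I:C) times a ratio above 1, which is what singled it out. For Il27 the same difference was -1.49 (SE 0.35, adjusted p = 0.52 by edgeR), again with ratios below 1 for LPS and above 1 for Poly(I:C) at both times. Each ratio rests on 1 library per genotype and condition, and genotype cannot be told apart from embryo sex in these libraries.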

How the results depend on the processing

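Of the values recomputed, 642 kept their direction and side of the threshold, 33 were no longer called, 27 became called and 13 changed direction. For TNF responses, 0 subunit calls became 2 with no filter (Ebi3 and Il12b in RelA-TA-KI at 8 h) and 1 with the replicate block; for the genotype difference with TNF, 0 became 1 in each of these. The difference of TNF responses stayed at 0 calls by edgeR and DESeq2, with 0 subunit values at an unadjusted p below 0.05 in edgeR. The block changed no other call. For the genotype difference shared by 9 conditions, 1 call became 0 with only 3 and 8 h, and leaving out 1 library gave 0 to 1. The 10 response calls ranged from 8 to 11 and the 5 calls of LPS against Poly(I:C) from 2 to 6 when 1 library was left out; the lowest was without the WT Poly(I:C) library of 3 h. Direction changed for the shared genotype difference of Il12b (2.24 with Poly(I:C) only, 0.01 with 3 and 8 h only, -1.18 to 0.06 with 1 library left out) and of Il27 (0.00 with DESeq2, 0.76 with Poly(I:C) only, -0.47 to 0.27 with 1 library left out, above 0 without LPS 3 h, at 0.27, or 8 h, at 0.01). It also changed for Ebi3 in WT cells at 8 h of TNF (-0.11 to 0.95) and for Ebi3 with Poly(I:C) at 3 and 8 h (-0.71 to 0.15). None of these 4 was called in the fits reported, and among the alternatives that changed direction only Il12b with Poly(I:C) was. The cause was not tested. Depth limits Il12a and Il23a, and Il12b and Il27 in untreated cells, to a few counts.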
